A study of Mus musculus with 19 samples.

Results

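In B6/SPRT hybrid males, 649 autosomal recombination hotspots assigned to the B6 allele of Prdm9 were cut on both homologs, with between 25 and 75% of their DMC1 reads coming from the B6 chromosome, limits included. They are called matched B6-allele hotspots here. They were 649 of 4122 autosomal B6-allele hotspots, or 25.5% (95% Wilson interval 23.9 to 27.3%) of the 2541 that had a B6 fraction, and 649 of 18522 autosomal hotspots of any allele. The same limits left 1564 B6-allele hotspots cut mainly on the SPRT chromosome (SPRT-side) and 328 cut mainly on the B6 chromosome (B6-side), while 1581 had no B6 fraction. They were chosen by the B6 fraction of DMC1 reads, so its values, and the DMC1 signal of the same library, are given as a description.

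The B6/SPRT males are adult F1 hybrids of C57BL/6J (B6) mothers and SPRET/EiJ fathers, an inbred strain of the Algerian mouse Mus spretus (SPRT), and carry 1 unmodified Prdm9 allele of each parent. One DMC1 library came from whole testis, and 2 H3K4me3 ChIP and 2 input samples are combined in a single column each. Whole testis holds many cell types besides the spermatocytes in which breaks form. The STUS/B6 males, used for the same positions in another hybrid, carry the B6 allele and that of STUS/Jpia, a Mus musculus musculus strain, in a cross with B6 (a hybrid that the study names STUSB6F1 and the labels B6xSTUS), again with 1 DMC1 library. Since each genotype had a single library, replicate error could not be measured and no test between groups was made, and the 95% intervals cover counting within a library. How DMC1 signal was scaled and how many reads lie behind each DMC1 fraction are not given in the sources used here.

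PRDM9 is a histone methyltransferase of meiotic cells whose zinc fingers bind a DNA motif, and it places H3K4me3 on the nucleosomes beside its binding site. SPO11 then cuts some of the bound sites, the ends are resected, and DMC1 coats the single strands and seeks the homolog, so that H3K4me3 reads binding and DMC1 reads breaks still under repair. Alleles of Prdm9 differ in their zinc fingers and so in their sites, and sites that are used are lost over generations from the genome that carries the allele. A site that is still intact on both homologs can be bound and cut on both.

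Of the matched hotspots, 4 (0.616%, against 1.15% of SPRT-side and 0.610% of B6-side hotspots) had a 1 kb H3K4me3 window that met a promoter in the RefSeq table (GRCm38.p6, the assembly of the mm10 build named in the submitters' processing notes). How many genes have a promoter there was not counted, so 0.616% is not the share of matched hotspots at promoters. By gene bodies, 40 (6.16%) were centered at most 1 kb from a start or end of any gene, near the background of 6.18%. In 2 of the 4 hotspots the center itself lay within that promoter sequence, and these are shown because the first is the matched hotspot with the highest DMC1 signal and the second lies directly upstream of a protein-coding gene. The capitals mark the 21 bases centered on the hotspot, and each sequence is written in the direction of its gene. The first covers chr3:129105751-129106050 on the minus strand at the start of Gm35726, a long noncoding RNA gene, with the hotspot center 34 bases downstream of the gene start. The second holds the 250 bases upstream of Fabp7, which encodes the fatty acid binding protein of brain, at chr10:57784673-57784922 on the plus strand, with the center 145 bases upstream of the gene start.
Gm35726: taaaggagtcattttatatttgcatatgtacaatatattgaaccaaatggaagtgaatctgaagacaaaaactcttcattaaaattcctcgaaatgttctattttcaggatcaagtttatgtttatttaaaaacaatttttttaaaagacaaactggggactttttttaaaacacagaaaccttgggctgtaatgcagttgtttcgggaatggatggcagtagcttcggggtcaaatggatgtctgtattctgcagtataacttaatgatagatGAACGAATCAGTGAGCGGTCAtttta
Fabp7: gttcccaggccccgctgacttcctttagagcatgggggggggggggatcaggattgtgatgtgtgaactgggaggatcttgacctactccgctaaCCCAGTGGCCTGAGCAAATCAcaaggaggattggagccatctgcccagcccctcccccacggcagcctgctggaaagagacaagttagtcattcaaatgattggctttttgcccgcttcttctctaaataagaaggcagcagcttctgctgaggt

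The Gm35726 stretch was poor in GC, at 32.7%, against 54.8% for the Fabp7 stretch, and they held 5 and 4 CpG dinucleotides. The Gm35726 hotspot, on chromosome 3 at position 129105766, had a DMC1 signal of 457, a 15.4-fold H3K4me3 enrichment over input, 33.1% of DMC1 reads from B6 and 66.6% of H3K4me3 reads from B6 (95% Wilson interval 62.6 to 70.4%, 563 SNP-carrying reads). Its 2 fractions thus lay on opposite sides of 50%. The Fabp7 hotspot, on chromosome 10 at position 57784778, was weaker, with a DMC1 signal of 28.3 and 6.59-fold H3K4me3 enrichment. There 27.1% of DMC1 reads and 54.8% of H3K4me3 reads (interval 49.1 to 60.4%, 292 reads) came from B6.

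The median B6 fraction of matched hotspots was under 50% by DMC1, on which they were chosen, and over 50% by H3K4me3. With 1564 B6-allele hotspots below the limits and 328 above, a DMC1 median under 50% can follow from the choice. The median H3K4me3 B6 fraction was 59.9% over autosomal hotspots of any allele, which include those of the SPRT allele. Over all B6-allele hotspots with a DMC1 fraction it was 37.0%. At matched hotspots the median B6 fraction of DMC1 reads was 44.3% (quartiles 34.3 and 55.4%), and 403 of the 649 hotspots were under 50%, 19 at 50% and 227 over it. The median B6 fraction of H3K4me3 reads was 55.2% (95% interval of the median 54.3 to 56.2%, quartiles 49.4 and 61.1%), and 464 hotspots (71.5%) were over 50%, against a background of 34.1% of all B6-allele hotspots with a DMC1 fraction. The median over each of the 19 autosomes was above 50%. SNP-carrying reads of the H3K4me3 ChIP thus came from both homologs at nearly every matched hotspot. They include any unspecific reads of the window, and enrichment at matched hotspots reached down to 0.717 (10th percentile 2.58). At the weakest, an intermediate fraction therefore does not by itself show the mark on both homologs. Between 25 and 75% of H3K4me3 reads came from B6 at 633 of 649 (97.5%, Wilson interval 96.0 to 98.5%), where the background over all 2541 hotspots with a DMC1 fraction was 54.2%. In the groups next to them it was 41.9% of SPRT-side (interval 39.5 to 44.3%) and 26.8% of B6-side hotspots (interval 22.3 to 31.9%). Matched hotspots of the SPRT allele in the same library, 2200 in number, stood at 97.8% (interval 97.1 to 98.4%), with a median H3K4me3 fraction of 57.7%. Their median DMC1 fraction was 49.4%, so a higher B6 fraction by H3K4me3 than by DMC1 was not particular to the B6 allele. The part of mapping to mm10 in it was not tested.

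**Figure D1:**
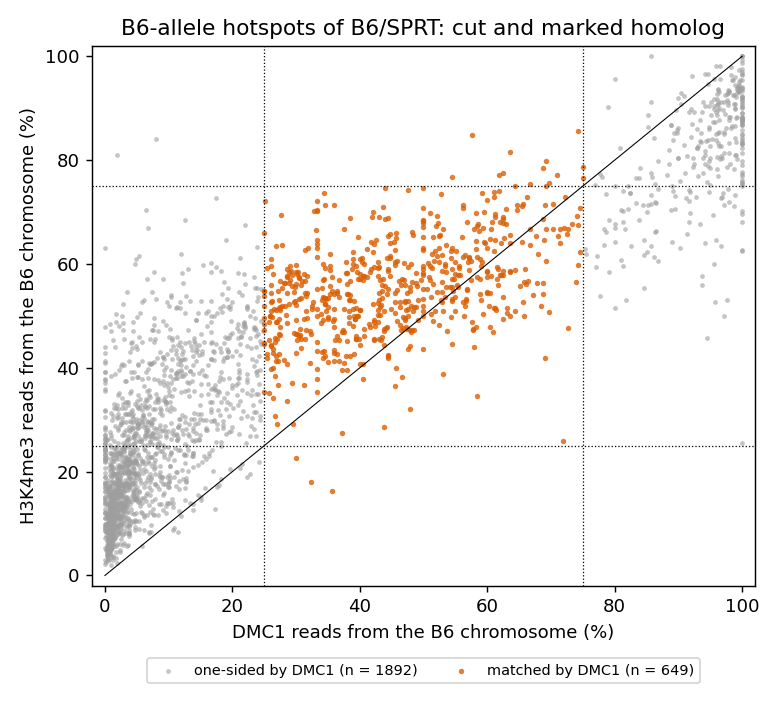
Each point is an autosomal B6-allele hotspot of B6/SPRT, with the percent of its DMC1 reads (x axis) and of its H3K4me3 reads (y axis) from the B6 chromosome. Orange points are the 649 matched hotspots, gray points the others with a DMC1 fraction, dotted lines the limits of 25 and 75% and the solid line equality, and 633 orange points lie between the limits on the y axis.

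The number of SNP-carrying H3K4me3 reads sets how well a single hotspot is placed. Matched hotspots had a median of 180 such reads (range 21 to 1424), which gave a median width of 14.0 percentage points for the Wilson interval of a hotspot. At 570 of them (87.8%) the whole interval lay between 25 and 75%, at 3 it lay above 75% and at 2 below 25%. It held 50% at 329 hotspots, lay above 50% at 266 and below 50% at 54. The H3K4me3 fraction exceeded the DMC1 fraction at 523 matched hotspots (80.6%), by a median of 9.54 percentage points (95% interval 8.55 to 10.6), but it did so at 82.2% of all B6-allele hotspots with both, so this share was near the background. Both measures rose together across matched hotspots, with a Spearman's rho of 0.455 and a Pearson's r of 0.463 (n = 649 hotspots of 1 genotype, which share SNPs and are not independent replicates). From the bin of 25 to 35% by DMC1 to that of 65 to 75%, the median H3K4me3 fraction went from 51.7% (n = 176) to 65.6% (n = 54).

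Among matched hotspots with at least 50 SNP-carrying reads, the lowest H3K4me3 fraction was 16.2% (interval 11.04 to 23.1%, 142 reads), on chromosome 14 at position 78445003, 16.0 kb from the pseudogene Gm4821, where 35.6% of DMC1 reads came from B6. The next lay on chromosome 6, at position 147217825 with 17.96% and at position 76886216, within Ctnna2, which encodes the alpha-catenin of neurons, with 22.6%. The highest was 85.6% (interval 79.0 to 90.4%, 146 reads) on chromosome 4 at position 84749759, 5.14 kb from the long noncoding RNA gene Gm12415, where 74.2% of DMC1 reads came from B6. It was followed by 84.8% within the pseudogene Gm11765, also on chromosome 4, and 81.6% on chromosome 3 at 12.95 kb from Sec24d, which encodes a coat protein of vesicles leaving the endoplasmic reticulum.

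The homolog assignment was read on the X chromosome (coded 20 in the table), of which a male has a single copy. It comes from the B6 mother, so it can show B6 reads assigned to SPRT, but not SPRT reads lost or assigned to B6. There, 2 of 698 hotspots with a fraction (0.287%, Wilson interval 0.0786 to 1.04%) fell between 25 and 75%, and the median was 100% from B6 by both DMC1 and H3K4me3. None of the 127 X hotspots of the B6 allele did, which allows a share of up to 2.36% if 3 counts are taken as the limit of a count of 0, and 2.94% by the Wilson interval.

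Matched hotspots were weak by DMC1. Their median DMC1 signal was 23.9 (95% interval 22.1 to 26.1, quartiles 15.2 and 48.4, range 7.504 to 457), against 63.0 (interval 59.1 to 69.6) at SPRT-side, 20.4 (interval 18.8 to 22.6) at B6-side and 88.4 (interval 85.3 to 94.8) at matched SPRT-allele hotspots. The median of matched hotspots was below that of SPRT-side hotspots on 19 of 19 autosomes. The strongest 65 of them held 41.3% of their summed signal, and 72 had a signal of 100 or more. By quartiles of DMC1 signal over the 2541 hotspots, the matched share fell from 38.4% (interval 34.7 to 42.3%) in the weakest to 32.9, 19.7 and 11.2% (interval 8.95 to 13.8%) in the strongest. A fraction at a weak hotspot can rest on few reads, and their number is unknown. The H3K4me3 fraction of matched hotspots lay between 25 and 75% at 96.7% of those in the weakest quartile and 98.6% of those in the strongest. Over all B6-allele hotspots with a DMC1 fraction in those quartiles, the share was 73.9% and 27.2%, so the contrast was smaller in the weakest.

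By H3K4me3, matched and SPRT-side hotspots were close to each other, B6-side hotspots were lower and matched SPRT-allele hotspots higher. The median enrichment over input was 5.74 at matched hotspots (95% interval 5.38 to 6.16, quartiles 3.71 and 9.24), 6.03 at SPRT-side (interval 5.84 to 6.25) and 4.68 at B6-side hotspots (interval 4.32 to 5.11). Matched hotspots of the SPRT allele had a median of 9.31. The median ChIP coverage of the 1 kb window was 119 at matched and 128 at SPRT-side hotspots over input coverage of 19 and 18. DMC1 signal relative to H3K4me3 was therefore lower at matched hotspots, with a median log2 ratio of 2.27 (interval 2.18 to 2.38) against 3.49 (interval 3.40 to 3.56) at SPRT-side, 2.28 at B6-side and 3.39 at matched SPRT-allele hotspots. The difference from SPRT-side hotspots was -1.22 on the log2 scale and was negative on 19 of 19 autosomes. In the lowest tertile of enrichment the median DMC1 signal was 15.3 at matched and 26.9 at SPRT-side hotspots, in the middle tertile 24.6 and 65.5, and in the highest 58.5 (interval 48.6 to 63.7) and 132 (interval 119 to 142). Low signal was shared by B6-side hotspots, with medians of 16.4, 21.1 and 39.3 from the lowest tertile to the highest. Across hotspots, Spearman's rho between signal and enrichment was 0.667 at matched and 0.559 at SPRT-side hotspots, as a description.

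**Figure D2:**
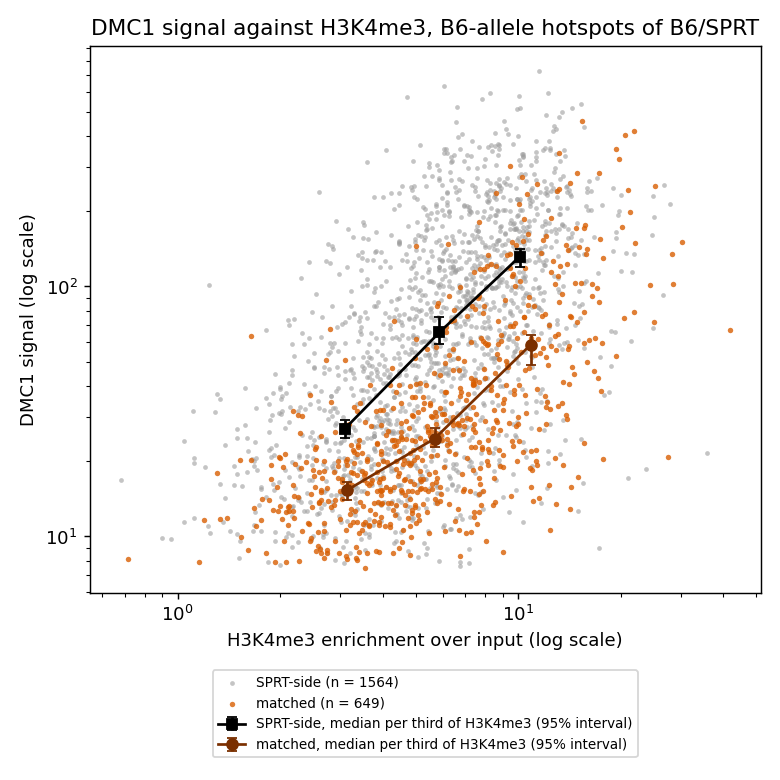
Each point is an autosomal B6-allele hotspot of B6/SPRT, with H3K4me3 enrichment over input (x axis) and DMC1 signal (y axis), both on log scales, in orange for the 649 matched and gray for the 1564 SPRT-side hotspots. Large symbols are the medians in each tertile of enrichment with their 95% intervals, and the median of matched hotspots is the lower in each, at 58.5 against 132 in the highest.

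Of the 5 matched hotspots with the highest DMC1 signal, all were also matched by H3K4me3. All but the first lay within protein-coding genes and were also matched in STUS/B6. On chromosome 11 at position 89611922, within Ankfn1, the signal was 420.1, with 54.9% of DMC1 reads and 50.9% of H3K4me3 reads (interval 47.9 to 54.0%, 1011 reads) from B6. On chromosome 8 at position 32250137, within Nrg1, a gene for a ligand of the ERBB receptors, the signal was 402, with 53.0 and 56.6% from B6. On chromosome 11 at position 79547011, within Nf1, which encodes a negative regulator of RAS, it was 356, with 39.5 and 58.5%. On chromosome 2 at position 38137602, within Dennd1a, an exchange factor for Rab GTPases, it was 341, with 48.3 and 66.2% (interval 57.8 to 73.7%, 133 reads). Their H3K4me3 enrichment was between 13.2 and 21.8.

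The strongest, at Gm35726, was the exception. No hotspot was called within 500 bp of it in STUS/B6, where the nearest lay 101 kb away. In B6/SPRT itself a hotspot of the SPRT allele, with a DMC1 signal of 430.5 and 99.5% of reads from B6, was centered 3.30 kb from it. Of the 649 matched hotspots, 45 had a hotspot of any allele within 5 kb, and 24 one of the SPRT allele. The share over all B6-allele hotspots was not computed, so these counts are a description. The part of that neighbor in the values at Gm35726 was not tested.

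The highest H3K4me3 enrichment among matched hotspots was 41.9, on chromosome 4 at position 120243182 within Gm36134, a long noncoding RNA gene, with a DMC1 signal of 67.1. It was followed by 30.2 within Capzb, which encodes a subunit of the actin capping protein (chromosome 4, position 139206876, signal 151), and 28.6 within Dusp26, a dual specificity phosphatase gene (chromosome 8, position 31091435, signal 103). The H3K4me3 fraction from B6 at these was 58.5, 47.9 and 55.5%, each from at least 860 SNP-carrying reads. Among hotspots at or above the median signal of matched ones, 5 were split evenly by DMC1. The first 3 of them in genome order were hotspots within Rab3gap2 (chromosome 1, position 185267120), Ola1 (chromosome 2, position 73188217) and Nrp1, a receptor for semaphorins and VEGF (chromosome 8, position 128372972). Their H3K4me3 fractions were 67.9% (interval 62.1 to 73.1%), 55.3% (interval 47.3 to 62.9%) and 53.3% (interval 48.4 to 58.1%).

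At the limits, 11 hotspots stood at 25% and 2 at 75%, and hotspots just outside were at 24.8%, within Phc3, and at 75.5%, within Csmd2. The H3K4me3 fraction was 54.8% at the hotspot within Lin54 on chromosome 5, just inside the lower limit, and 47.1% at that within Phc3. At the upper limit it was 76.6% within Pard3b on chromosome 1, just inside, and 61.9% within Csmd2.

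Most matched positions were also hotspots in STUS/B6, and there most were again cut on both homologs. A STUS/B6 hotspot was centered within 500 bp of 597 matched hotspots (92.0%, Wilson interval 89.6 to 93.8%), at a median distance of 60 bp, where the background was 84.7% of B6-allele hotspots with a fraction. Of these, 574 were assigned to the B6 allele and 23 to none. The authors assigned alleles by comparing mice, so the presence or absence of a position in another hybrid may have entered its label. In the hybrids that lack the B6 allele, 5 of 649 positions were hotspots in Hum/SPRT, 5 in STUS/Hum and 1 in CAST/SPRT, and each was assigned to the humanized or CAST allele that replaces it. Low counts there can follow from how the label was given, so nothing is drawn from them. The share over all B6-allele hotspots was not computed. The 52 positions with no STUS/B6 hotspot had a lower median signal, at 16.9 (interval 13.7 to 20.2), than those matched in both hybrids, at 26.3 (interval 23.8 to 28.9), although they include Gm35726.

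A B6 fraction was listed in STUS/B6 at 551 of the 597, and 417 of these (75.7%, Wilson interval 71.9 to 79.1%) were matched there too, against a background of 35.0% over the 2061 B6-allele hotspots with a fraction in both hybrids. Another 68 (12.3%) were cut mainly on STUS, with over 75% of reads from that chromosome, and 66 (11.98%) mainly on B6. In comparison, 11.5% of SPRT-side hotspots (interval 9.86 to 13.4%) and 62.2% of B6-side hotspots (interval 56.1 to 67.9%) were matched in STUS/B6. The median B6 fraction of matched hotspots there was 51.0% (95% interval 49.7 to 52.7%, quartiles 38.4 and 63.7%), 3.99 percentage points above B6/SPRT at the same hotspots (interval 2.01 to 6.43), with 315 higher and 236 lower. Within the range of 25 to 75% that chose the hotspots, the B6 fractions of the 2 hybrids were weakly correlated. A restricted range and few reads per fraction can both lower a correlation, and their part was not tested. Spearman's rho between the 2 hybrids was 0.173 and Pearson's r 0.177 over these 551 hotspots, which share the B6 homolog and differ in the other, and 188 (34.1%) differed by at most 10 percentage points. Matched by DMC1, by H3K4me3 and in STUS/B6 at once were 412 of the 649 (63.5%). That total includes hotspots that could not be classed in STUS/B6, and all 412 are among the 551 that could. A joint share over all B6-allele hotspots was not computed.

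**Figure D3:**
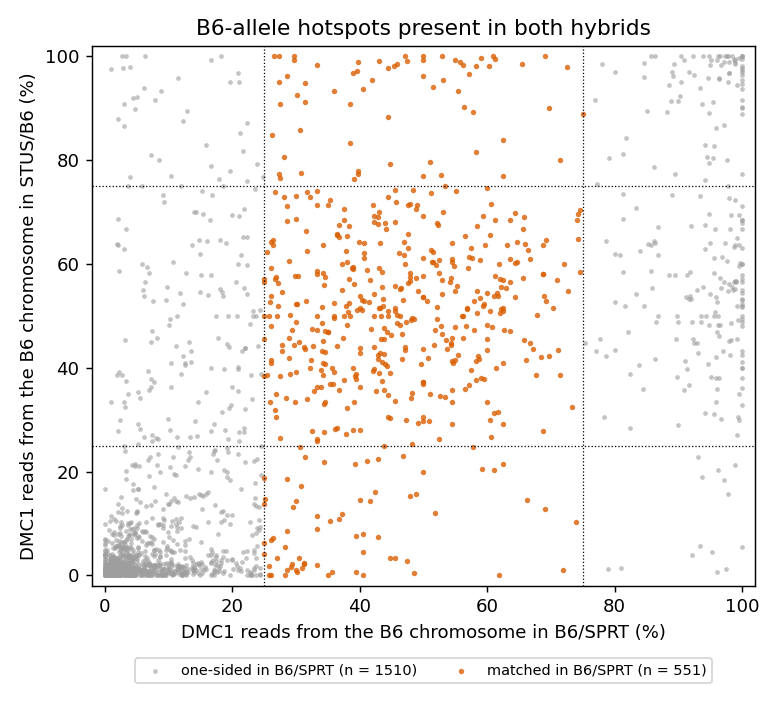
Each point is an autosomal B6-allele hotspot found in both hybrids, with the percent of DMC1 reads from the B6 chromosome in B6/SPRT (x axis) and in STUS/B6 (y axis). Orange points are the 551 hotspots matched in B6/SPRT, gray points the others with a fraction in both, and dotted lines the limits of 25 and 75%, and 417 orange points lie between the limits on the y axis.

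The share matched in STUS/B6 was lowest for hotspots cut least on B6 in B6/SPRT. It was 65.3% (interval 57.2 to 72.6%, n = 144) from 25 to 35%, 77.2% from 35 to 45%, 82.6% (interval 74.9 to 88.4%, n = 121) from 45 to 55%, 79.6% from 55 to 65% and 76.7% (n = 43) from 65 to 75%. Of the 68 hotspots cut mainly on STUS, 57 (83.8%) had under 50% from B6 in B6/SPRT, as did 344 (62.4%) of all 551. Their median H3K4me3 fraction in B6/SPRT was 49.0% (interval 45.6 to 54.3%), against 55.6% (interval 54.5 to 56.8%) at hotspots matched in both hybrids and 54.9% (interval 51.9 to 57.9%) at those cut mainly on B6 in STUS/B6.

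Over the 551 hotspots, the B6 fraction in STUS/B6 minus that in B6/SPRT reached from -70.8 to 73.4 percentage points. The strongest hotspots by DMC1 signal that changed class moved by less. Cut mainly on STUS there were the hotspots within Emx2os on chromosome 19 (position 59442945, signal 261), with 30.7% from B6 in B6/SPRT and 24.7% in STUS/B6, within Sirt1, a gene for a NAD-dependent deacetylase, on chromosome 10 (position 63325835, signal 237), with 25.1 and 14.7%, and within Pdzd2 on chromosome 15 (position 12582470, signal 186), with 25.7 and 1.91%. The first lay just across the limit of 25% in STUS/B6. Cut mainly on B6 there were hotspots on chromosome 3 at position 38522031 (signal 324, 61.3 and 99.6%), on chromosome 18 within AW554918 (position 25307803, signal 235, 59.1 and 99.7%), and on chromosome 14 at position 46563146, 5.19 kb from the long noncoding RNA gene Rubie (signal 199, 44.8 and 79.3%).

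DMC1 signal can be set against other B6-allele hotspots only within a library. Matched hotspots had a median percentile of 31.4 among B6-allele hotspots of B6/SPRT (95% interval 29.1 to 35.0). At the 597 positions found in both hybrids it was 32.7 in B6/SPRT. In STUS/B6 it was 57.5 (interval 54.8 to 60.05) at the 574 of them assigned to the B6 allele there, since unassigned hotspots were not ranked. Other positions found in both also stood higher in STUS/B6, from 63.2 to 73.3 for SPRT-side hotspots, from 27.6 to 63.9 for B6-side hotspots and from 49.2 to 67.5 for all B6-allele hotspots with a fraction. The STUS/B6 values again leave out positions unassigned there. The scales of the libraries are separate.

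Matched hotspots were found on every autosome, between 15 on chromosome 19 and 50 on chromosome 4, with a median of 37. Their number followed that of B6-allele hotspots with a fraction, with a Spearman's rho of 0.748 over the 19 autosomes of this library. Over the span between the first and last called hotspot, the density was between 1.78 per 10 Mb on chromosome 6 and 4.48 per 10 Mb on chromosome 17, which carries Prdm9. Chromosome 17 also had the highest matched share, 38.0% (41 of 108 hotspots, Wilson interval 29.4 to 47.4%), and chromosome 19 the lowest, 19.7% (15 of 76, interval 12.3 to 30.04%). The share matched in STUS/B6 was between 57.6% on chromosome 3 (n = 33) and 94.1% on chromosome 1 (n = 34).

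**Figure D4:**
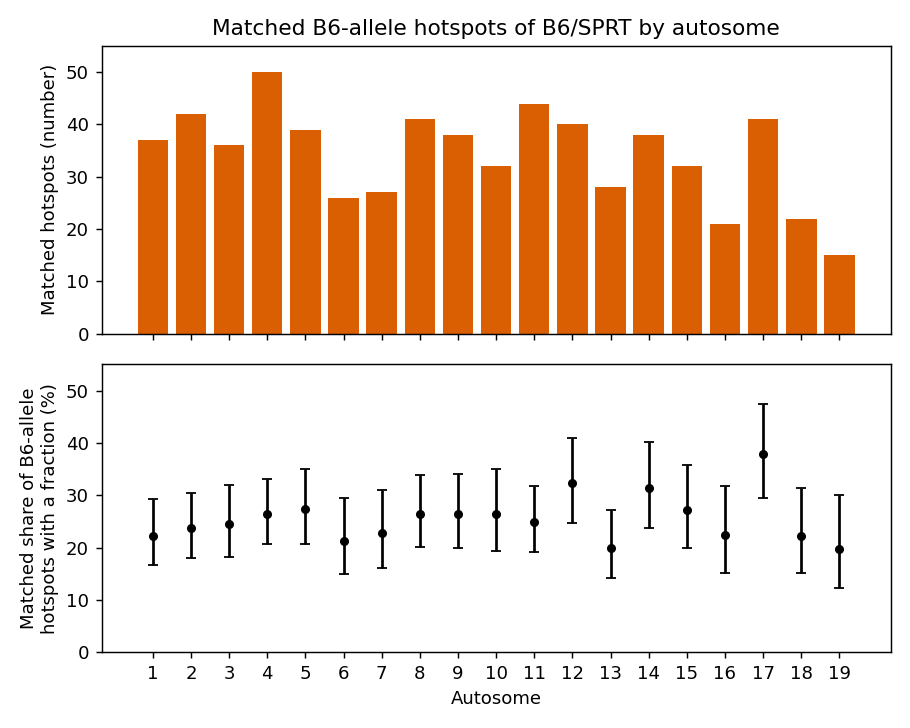
The upper panel gives the number of matched B6-allele hotspots of B6/SPRT on each autosome, from 15 on chromosome 19 to 50 on chromosome 4. The lower panel gives them as a percent of the B6-allele hotspots with a DMC1 fraction, with 95% Wilson intervals as bars, which reach from 19.7% on chromosome 19 to 38.0% on chromosome 17.

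Matched hotspots lay megabases apart. The 630 distances from a matched hotspot to the next on its autosome had a median of 1.96 Mb (95% interval 1.61 to 2.24 Mb, quartiles 0.729 and 4.86 Mb), with 29 under 100 kb, 5 under 10 kb and 53 over 10 Mb. The median distance on a single autosome was shortest on chromosome 17, at 0.756 Mb. SPRT-side hotspots, which are more numerous, followed each other at a median of 889.8 kb and B6-side hotspots at 3997 kb. Other hotspots filled the gaps between matched ones: the nearest SPRT-allele hotspot was at a median of 72.9 kb, and the nearest of any allele at 36.6 kb. The next B6-allele hotspot with a fraction was matched in 171 of 642 cases (26.6%, Wilson interval 23.4 to 30.2%), against 25.7% over all such neighbors, so that matched hotspots followed each other about as often as their share of the hotspots.

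**Figure D5:**
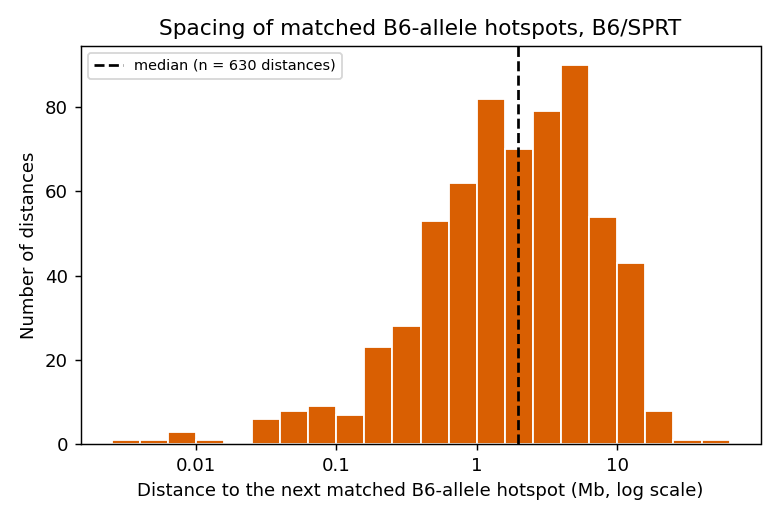
Histogram of the 630 distances (x axis, Mb on a log scale) from a matched B6-allele hotspot of B6/SPRT to the next on the same autosome, with the number of distances on the y axis. The dashed line is the median of 1.96 Mb, and 53 distances were over 10 Mb.

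The closest pair lay 3.63 kb apart on chromosome 4, at positions 134473916 and 134477541, beside Stmn1, which encodes the microtubule regulator stathmin. Its members had DMC1 signals of 285 and 61.8, with 35.0 and 43.1% of DMC1 reads and 53.5 and 50.1% of H3K4me3 reads from B6, and both were matched in STUS/B6. The next pair lay 4.20 kb apart within Ppm1f, a protein phosphatase gene on chromosome 16, at positions 16922948 and 16927148, with 50 and 56.2% of DMC1 reads from B6. In STUS/B6 its members parted, with 37.2 and 98.4% from B6. The widest gap, 45.2 Mb on chromosome 1, reached from a hotspot within Cspp1 (position 10089264) to one within Boll, which encodes an RNA-binding protein of germ cells (position 55308603).

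By RefSeq gene bodies, 451 matched hotspots (69.5%, Wilson interval 65.8 to 72.9%) were centered within a gene, against a background of 65.1%, and 411 (63.3%, interval 59.6 to 66.9%) within a protein-coding gene, where 58.2% of all B6-allele hotspots with a fraction were. Exons and introns were not told apart here. Few were near a gene end: 22 (3.39%, interval 2.25 to 5.08%) were centered at most 1 kb from where a protein-coding gene starts or ends, near the background of 3.19%. These 22 had a median H3K4me3 enrichment of 7.90 (95% interval 5.55 to 10.8) and a median B6 fraction of H3K4me3 reads of 54.4%, against 5.69 and 55.3% at the other 627. H3K4me3 also marks active promoters without PRDM9, and its part in the enrichment at those 22 was not tested.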

How the data were processed

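DMC1 SSDS and H3K4me3 ChIP-seq of testis were analyzed in 5 genotypes and 19 samples. Per the labels and the submitters' processing notes, reads were mapped with BWA to mm10. The authors called hotspots without prior positions, attributed each to a Prdm9 allele from its use in other mice, and told homologs apart by SNPs. They deposited 1 table per genotype, matched here to its genotype by its alleles and its number of hotspots. The deposited DMC1 signal has no stated scaling to depth, and the deposited DMC1 fraction comes without its number of reads. The deposited H3K4me3 columns, taken as pooled over samples, are counts of ChIP and input coverage in 1 kb windows, an enrichment ratio (formula not stated), and a fraction with its count of SNP-carrying reads. Over autosomal hotspots of B6/SPRT, ChIP coverage summed to 3136355 and input coverage to 355847, of which matched hotspots held 102527 and 12296. The authors deposited p-values and a mark for sharing in 13 further columns, which were not used. The allele labeled UNK in the tables is called unassigned.

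Values were computed in Python 3.11.15 (scipy 1.17.1, numpy 2.4.6, pandas 2.3.3) and plotted with matplotlib 3.10.9. Shares have 95% Wilson intervals and medians 95% order-statistic intervals, which cover counting error only. Reads are not independent molecules. The median of a log2 ratio is that of DMC1 signal over H3K4me3 enrichment, with no pseudocount. Positions in different tables were the same when centers lay within 500 bp. Distances run between centers of neighbors on an autosome. Genes and promoter sequences are from RefSeq, GRCm38.p6. The computations were tested on simulated data. The hotspots, lists and alternatives were chosen with earlier results of these data known. Hotspots were named by rule: the 5 highest by DMC1 signal, the 3 highest by H3K4me3 enrichment, the 3 nearest 50% at or above the median signal, those just inside and outside each limit, the 3 lowest and 3 highest by H3K4me3 fraction with at least 50 reads, the closest 2 pairs, the widest gap, and the 3 strongest in each class of STUS/B6. Fabp7 was named after its values were seen, for its promoter. One hotspot that the rule names is not reported here.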

Additional observations from a re-analysis of the deposited data

How the results depend on the processing

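Of 68 alternative values for 11 results, 46 stayed within the interval of the value reported, or within 1.5 times a count, and 22 did not. Limits of 20 to 80% gave a matched share of 30.5%, a median H3K4me3 fraction of 54.1%, 44 hotspots per autosome and a spacing of 1.59 Mb. Limits of 30 to 70% gave a share of 21.02%, a spacing of 2.54 Mb and 69.3% matched in STUS/B6, where the limits moved with those in B6/SPRT. Limits of 40 to 60% left 289 hotspots, a share of 11.4%, a median H3K4me3 fraction of 56.8%, 99.3% between 25 and 75% by H3K4me3, 15 per autosome, a spacing of 4.82 Mb, and 270 positions found in STUS/B6, of which 45.1% of those with a fraction were matched. Keeping only hotspots at or above the median DMC1 signal of B6-allele hotspots left 176, a share of 14.5%, a median signal of 83.4, an enrichment of 10.6, a spacing of 4.30 Mb and 171 positions found in STUS/B6. ChIP over input coverage plus 1 gave a median ratio of 6.23 in place of the deposited enrichment. Each of these settings changes which hotspots are kept or which ratio is used, and why each value moved was not tested. The lower matched share at higher signal goes with its fall across quartiles of DMC1 signal. A minimum of 20 or 100 SNP-carrying reads, windows of 250 or 1000 bp, only B6-allele hotspots in STUS/B6, leaving out hotspots within 1 kb of a gene end, and leaving out the autosome with the most hotspots moved no result beyond those bounds. No paired analysis was possible because each genotype has 1 DMC1 library and the H3K4me3 replicates share a column. The unknown number of reads behind DMC1 fractions limits how well weak hotspots are classed.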

Other observations

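B6-allele hotspots with no DMC1 fraction in B6/SPRT numbered 1581, and their median DMC1 signal of 49.5 (95% interval 45.1 to 54.3) lay between those of matched and SPRT-side hotspots. An H3K4me3 fraction was listed for 1571 of them, with a median of 38.7% from B6 (interval 37.5 to 40.2%), and 1122 (71.4%) were between 25 and 75%. In STUS/B6, 1248 of them had a DMC1 fraction and 278 (22.3%, Wilson interval 20.1 to 24.7%) were matched, against 75.7% of the hotspots matched in B6/SPRT.

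B6-side hotspots, cut mainly on the B6 chromosome in B6/SPRT, had a median H3K4me3 fraction of 83.5% and a median B6 fraction of 58.6% in STUS/B6 (95% interval 56.1 to 63.6%), which was lower by 33.5 percentage points at the median hotspot.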
